A study of Mus musculus with 6 samples.

Results

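The 9 genes described here encode the receptors and the enzymes of the endocannabinoid system, and were chosen by function from the 56748 genes of the deposited tables. They are *Cnr1* and *Cnr2* for the cannabinoid receptors, *Napepld*, *Faah* and *Naaa* for enzymes that make or break down anandamide, and *Dagla*, *Daglb*, *Mgll* and *Abhd6* for enzymes that make or break down 2-arachidonoylglycerol (2-AG). RNA was sequenced from the uteri of 3 control and 3 *Gp130* ecKO females on the C57BL/6J background, collected on day 4 of pregnancy at 1600 h. According to the study's methods, *Gp130* ecKO females were sexually mature, were heterozygous for the *Ltf*-iCre allele and homozygous for floxed *Gp130*, and had been mated with a fertile wildtype male. Controls are called WT in the labels, while the methods allow for wildtype females and for floxed females without iCre, so which of them carried the floxed alleles is open. The *Ltf* promoter drives the recombinase in the uterine epithelium, so the stroma, muscle and vessels of the same uterus were not its target. The study also states that some immune cells, neutrophils and macrophages among them, express *Ltf*, so *Gp130* may be deleted there too. The labels name the tissue as uterus, and the design text of the series speaks of endometrium. The labels number the uteri of each group but say no more about them, so the p-values below measure the spread between these samples.

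Anandamide and 2-AG are lipid messengers that a cell makes on demand from membrane phospholipids and that act on the G protein-coupled receptors CB1 and CB2. Their local level is set by the balance of the enzymes that release them and the hydrolases that remove them. In the mouse uterus this balance is known to matter for implantation: a receptive uterus holds little anandamide, and the blastocyst carries CB1. Expected counts, the reads that RSEM assigns to each gene, summed to between 13960748 and 25906443 per uterus, with the lowest sum in control 3. They are given below as CPM, expected counts scaled to the size of the library with TMM factors, unless TPM is named. Values of single uteri are listed in the order of replicates 1, 2 and 3. In a multidimensional scaling of all tested genes, control 2 lay at 0.03 on the first dimension, between the other controls at 2.09 and 2.08 and the *Gp130* ecKO uteri at −1.47 to −1.32. *Il6st*, the gene of Gp130, had 631, 678 and 452 CPM among the controls and 388, 349.8 and 362 CPM among the *Gp130* ecKO uteri. None of the *Gp130* ecKO uteri reached the lowest control (log2 fold change −0.68, standard error 0.21, edgeR adjusted p = 0.1196, which here and below is from its quasi-likelihood test with Benjamini-Hochberg adjustment), in RNA that also held cells in which the gene was not deleted. The unadjusted p of 0.0133 was 0.0566 without control 2, at a log2 fold change of −0.53, and 0.0529 without control 1, at −0.60, and the adjusted p ran from 0.0346 with DESeq2 to 0.3001 without *Gp130* ecKO 1.

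Of the cell type markers, only *Ovgp1* passed an FDR of 0.05, and counts of markers at an unadjusted p below 0.05 stand beside 12.1% of all tested genes on the higher side and 12.9% on the lower. The part of these markers in the results below was not tested. The summed CPM of *Epcam*, *Krt8*, *Krt18*, *Krt19* and *Cdh1* was 1705 to 2602 in the controls and 3801 to 5101 in *Gp130* ecKO, and 3 of the 5 had an unadjusted p below 0.05, all higher. *Epcam* itself overlapped between the groups, with 348 to 649.5 CPM among the controls and 363 to 429 CPM among the *Gp130* ecKO uteri. Of the 5 stromal markers 3 were lower at an unadjusted p below 0.05, with a sum of 2139 to 2761 CPM among the controls and 1010 to 1850 CPM among the *Gp130* ecKO uteri. All 5 endothelial markers were lower at an unadjusted p below 0.05, and their sum was 342 to 820.1 CPM among the controls and 185 to 332 CPM among the *Gp130* ecKO uteri. *Ovgp1*, the marker used for oviduct, had 47.9 to 85.3 CPM among the controls and 552 to 1193 CPM among the *Gp130* ecKO uteri (edgeR adjusted p = 0.0377). Smooth muscle markers ran from 448 to 1919 CPM among the controls and from 339 to 2209 CPM among the *Gp130* ecKO uteri, and of 4 neutrophil markers 3 were lower at an unadjusted p below 0.05, with a sum of 5.07 to 8.06 against 0.588 to 1.70 CPM. Adipocyte markers reached 6.36 CPM at most and *Lep* was at 0 in all uteri. In these bulk samples, more cells of a type cannot be told apart from more RNA per cell.

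Levels of different genes were compared as TPM, the authors' value per transcript length. *Naaa*, encoding a lysosomal amidase that hydrolyses N-acylethanolamines, stood far above the other members, with 383, 132 and 200.2 TPM among the controls and 175, 153 and 119.8 TPM among the *Gp130* ecKO uteri. Its mean over the 6 uteri was above that of 97.7% of the genes with a count. Behind it came a group of 4 genes with neighbouring levels. In the controls the means were 17.6 TPM for *Napepld*, 10.7 TPM for *Mgll*, 9.70 TPM for *Faah* and 8.09 TPM for *Abhd6*, and each gene's range over the 3 uteri overlapped that of the next. In *Gp130* ecKO the order was the same, at 25.5, 22.5, 20.5 and 14.9 TPM, again with overlapping ranges. The ranges of *Naaa* and *Napepld* did not overlap in either group, nor did those of *Abhd6* and *Daglb*.
The diacylglycerol lipase genes, which make 2-AG, were lower. *Daglb* had a mean of 4.31 TPM among the controls and 3.47 TPM among the *Gp130* ecKO uteri, and *Dagla* 0.897 and 0.800 TPM. In each of the 6 uteri *Daglb* was above *Dagla*, and the ranges of these genes did not overlap in either group. The receptor genes were at the foot of the order, *Cnr2* at 0.02 to 0.25 TPM and *Cnr1* at 0 to 0.03 TPM over all uteri. The plot of TPM by gene shows the values in each uterus. By mean the 9 genes came in the same order when the deposited FPKM was used in place of TPM.

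**Figure D1:**
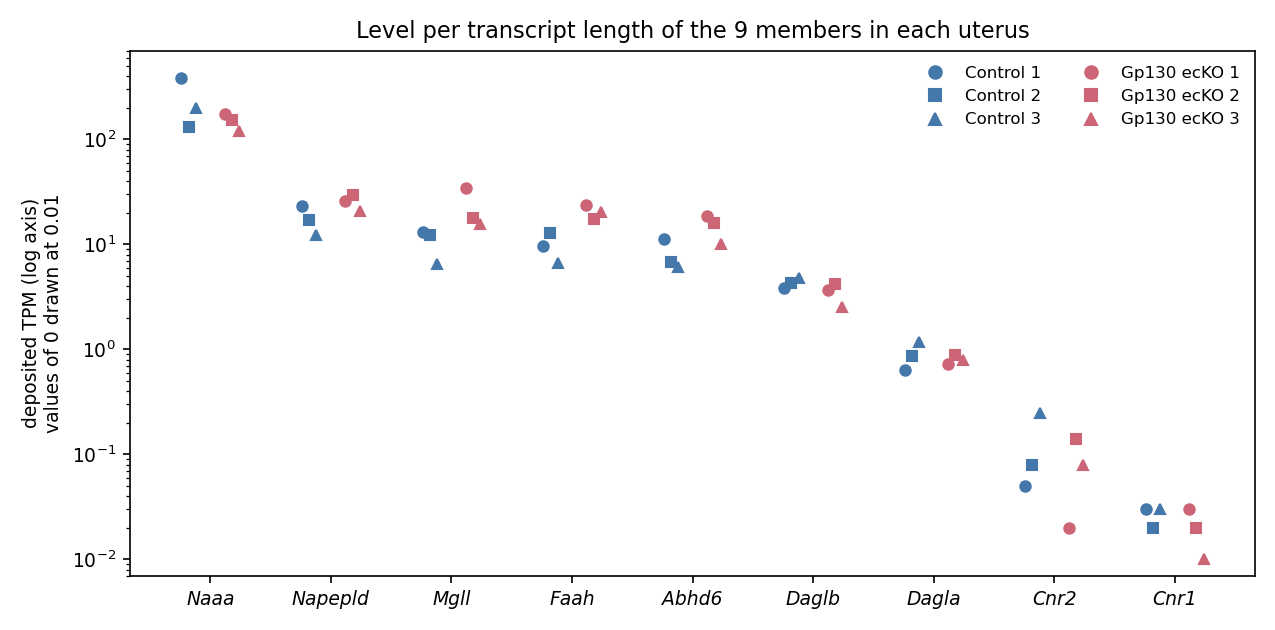
Deposited TPM, on a log axis, of each of the 9 genes, with blue for control and red for *Gp130* ecKO, 1 point per uterus and a symbol for each replicate number; a value of 0 is drawn at 0.01. *Naaa* lies highest, at 119.8 to 383 TPM, and *Cnr1* lowest, at 0 to 0.03 TPM.

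*Cnr1*, the gene of CB1 (ENSMUSG00000044288, chromosome 4 of GRCm39, 33922982 to 33948836), received 3, 2 and 2 counts among the controls and 3, 2 and 0 counts among the *Gp130* ecKO uteri. No uterus exceeded 3 counts, so no fold change is given, and a difference between the genotypes was not detectable at this depth. A count of 3 corresponds to 0.116 to 0.215 CPM of the library totals, for counting error only. *Cnr2*, the gene of CB2, a receptor known from B cells and macrophages (ENSMUSG00000062585, chromosome 4, 135622696 to 135647518), received 4, 6 and 10 counts among the controls and 1, 9 and 6 counts among the *Gp130* ecKO uteri. As CPM these were 0.162, 0.231 and 0.667 against 0.0452, 0.346 and 0.249, and the groups overlapped. The genes closest to *Cnr1* in their course over the uteri were *Pttg1ip*, *Smarca5* and *Gpatch11*, at distances of 0.094 for the first and 0.1 for the other two, by the measure given with *Faah* below. With 0 to 3 counts per uterus the course of *Cnr1* is nearly flat, so these are genes that varied little, and the likeness says nothing more of *Cnr1*. Neither receptor gene passed the filter on low counts. In edgeR's quasi-likelihood fit without the filter, over 29916 genes, the unadjusted p was 0.581 for *Cnr1* and 0.569 for *Cnr2*.
The low *Cnr2* counts stood beside few B cell markers, 1.04 to 2.60 CPM in sum in the controls and 0.814 to 1.66 CPM in *Gp130* ecKO. Macrophage markers summed to 70.6 to 90.9 CPM among the controls and 45.9 to 75.3 CPM among the *Gp130* ecKO uteri, and 1 of the 5 had an unadjusted p below 0.05, lower in *Gp130* ecKO, where 12.9% of all tested genes did. Their part in the receptor level was not tested.

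The comparison of genotypes asks whether the loss of epithelial Gp130 goes with a change in the genes that set the local level of endocannabinoids. The filter on low counts left 7 enzyme genes. Of these, *Faah*, *Mgll*, *Abhd6* and *Napepld* had higher means in *Gp130* ecKO, and *Naaa*, *Daglb* and *Dagla* lower means. By edgeR's quasi-likelihood test with Benjamini-Hochberg adjustment over 16605 genes, 0 of the 7 passed an FDR of 0.05 with more than 2-fold change. Of all tested genes, 0.157% did. An unadjusted p below 0.05 was found for 2 of the 7, *Faah* and *Mgll*, both higher, where 25.0% of all genes had such a p, 12.1% with higher and 12.9% with lower values in *Gp130* ecKO. DESeq2 and the exact and likelihood ratio tests of edgeR each called 1 of the 7, which was *Faah*, where they called 9.31%, 7.54% and 7.93% of all genes. Groups were fully apart in CPM for 3 of the 7, *Faah* and *Mgll* on the higher side and *Daglb* on the lower. Among all tested genes 31.3% did not overlap, 15.7% on the higher side and 15.6% on the lower. The median log2 fold change of the 7 was 0.43, beside −0.05 for all tested genes.

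**Figure D2:**
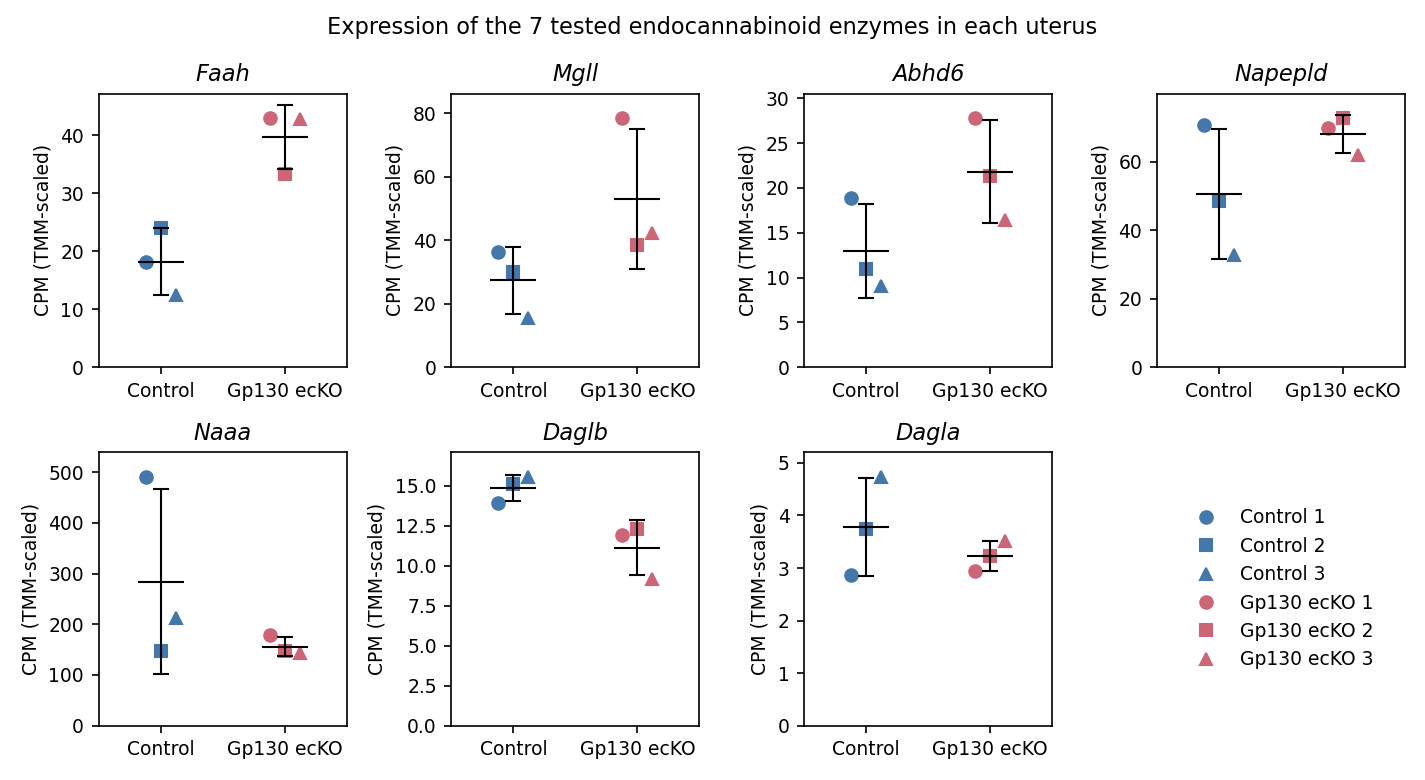
CPM of the 7 tested enzyme genes, 1 panel per gene with its own axis from 0, in 3 control (blue) and 3 *Gp130* ecKO (red) uteri, where the horizontal line is the mean and the error bar the SD. *Faah* separates the groups, at 12.4 to 24.0 against 33.3 to 42.9 CPM, while the high *Naaa* mean of the controls comes with 491 CPM in control 1.

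*Faah* encodes the fatty acid amide hydrolase that degrades anandamide (ENSMUSG00000034171, chromosome 4, 115824342 to 115875423, reverse strand). It received 450, 622 and 186 counts among the controls and 949, 865 and 1034 counts among the *Gp130* ecKO uteri, which is 18.2, 24.0 and 12.4 CPM against 42.9, 33.3 and 42.9 CPM. The lowest *Gp130* ecKO uterus was above the highest control. The means were 18.2 ± 5.8 CPM (SD, n = 3) and 39.7 ± 5.6 CPM (SD, n = 3), a 2.18-fold difference. The log2 fold change was 1.12 (standard error 0.27, 95% interval 0.49 to 1.75, unadjusted p = 0.00376, edgeR adjusted p = 0.0889). The exact two-sided permutation test of 3 uteri against 3 gave p = 0.1, the smallest it allows. Without control 2 the log2 fold change was 1.40 and the adjusted p 0.0401 from edgeR, in a fit that called 5.23% of all genes, and over the 17 alternatives the adjusted p ran from 0.00592 with DESeq2 to 0.257 without *Gp130* ecKO 1.
By the summed epithelial markers the 6 uteri came in the same order as by *Faah*. Per 1000 CPM of the summed epithelial markers, *Faah* had 7.43, 9.22 and 7.28 CPM among the controls and 8.41, 8.75 and 10.8 CPM among the *Gp130* ecKO uteri. On this scale, chosen after seeing the data, the groups overlapped, and the difference of the mean log2 ratios was 0.23. Dividing by the marker sum lowers this difference by 0.94 for any gene, and 63.9% of all tested genes lay fully apart on the lower side once divided by it. The same difference was 0.03 for *Mgll*, −0.15 for *Abhd6*, −0.45 for *Napepld*, −1.14 for *Dagla*, −1.37 for *Daglb* and −1.62 for *Naaa*. Within the marker sum, *Krt8*, *Krt19* and *Cdh1* had log2 fold changes of 1.32, 2.19 and 0.66. That of *Krt18* was 0.74, with overlapping groups, and that of *Epcam* was −0.19. Per 1000 CPM of *Epcam* alone, a scale also chosen after seeing the data that raises any gene by 0.14, *Faah* had 28.0 to 63.3 CPM among the controls and 91.7 to 103.5 CPM among the *Gp130* ecKO uteri, so these groups did not overlap. On the *Epcam* scale *Mgll*, *Abhd6* and *Napepld* did not overlap either, with differences of 1.1, 0.93 and 0.63, where 13.1% of all tested genes lay fully apart on the higher side, while *Naaa*, *Daglb* and *Dagla* overlapped, at −0.54, −0.29 and −0.06. *Rbbp9* and *Slc39a11* were among the 3 genes closest to *Faah* in their course over the 6 uteri, out of 14756 genes with a mean of at least 1 CPM, by the Euclidean distance of centred log2(CPM + 0.5). The distance was 0.205 for *Gm15163*, 0.233 for *Rbbp9* and 0.251 for *Slc39a11*, where the distance of *Faah* from its own mean was 1.57. *Rbbp9* had 73.6, 88.8 and 53.5 CPM among the controls and 187, 145 and 162 CPM among the *Gp130* ecKO uteri.

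*Naaa*, whose product acts on anandamide in lysosomes but prefers palmitoylethanolamide (ENSMUSG00000029413, chromosome 5, 92405517 to 92426085), had 491, 147 and 213 CPM among the controls and 178, 148 and 142 CPM among the *Gp130* ecKO uteri. Control 1 was the highest of all uteri, and control 2 lay within the range of the *Gp130* ecKO uteri. For *Naaa* the log2 fold change was −0.86 (standard error 0.42, 95% interval −1.83 to 0.11, edgeR adjusted p = 0.242). It was −0.17 without control 1, and −1.15 without control 2 (unadjusted p = 0.0143, beside 0.0753 with it). Per length and within each uterus, *Faah* was at 0.0251, 0.0973 and 0.0331 of the *Naaa* level among the controls and at 0.135, 0.115 and 0.170 of it among the *Gp130* ecKO uteri. The ratio was higher in each *Gp130* ecKO uterus than in any control, with a difference of 1.67 between the mean log2 ratios (1.28 without control 1 and 2.26 without control 2).
*Napepld*, the gene of the phospholipase D that releases anandamide from its membrane precursor (ENSMUSG00000044968, chromosome 5, 21867688 to 21923575), had 70.6, 48.5 and 32.9 CPM among the controls and 69.9, 72.6 and 61.8 CPM among the *Gp130* ecKO uteri. Control 1 was within the range of the *Gp130* ecKO uteri. Its log2 fold change was 0.43 (standard error 0.27, 95% interval −0.21 to 1.06, edgeR adjusted p = 0.360). Of its stretches of 75 bases 4.78% also occur on the opposite strand of other genes, where *Armc10* overlaps it. Leaving out control 1 gave 0.77 and leaving out control 3 gave 0.19. As a ratio of a making to a degrading enzyme, *Napepld* to *Faah* was 2.44, 1.33 and 1.85 among the controls and 1.11, 1.69 and 1.01 among the *Gp130* ecKO uteri. These ratios overlapped between the groups, and their mean log2 values were 0.86 ± 0.44 (SD, n = 3) and 0.31 ± 0.39 (SD, n = 3).

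*Mgll* encodes the monoacylglycerol lipase that performs most of the hydrolysis of 2-AG in brain (ENSMUSG00000033174, chromosome 6, 88652108 to 88805342). It had 36.4, 29.9 and 15.6 CPM among the controls and 78.4, 38.5 and 42.1 CPM among the *Gp130* ecKO uteri. The groups did not overlap, but control 1 and *Gp130* ecKO 2 were close, and *Gp130* ecKO 1 stood well above the other uteri. The log2 fold change was 0.95 (standard error 0.38, 95% interval 0.05 to 1.85, unadjusted p = 0.0404, edgeR adjusted p = 0.182). Without *Gp130* ecKO 1 it was 0.56 (unadjusted p = 0.164), without control 3 it was 0.67 (unadjusted p = 0.0995), and without control 2 it was 1.05 (unadjusted p = 0.0589).
*Abhd6*, the gene of a membrane-bound hydrolase of 2-AG (ENSMUSG00000025277, chromosome 14, 14411450 to 14468795), had 18.9, 11.0 and 9.001 CPM among the controls and 27.8, 21.3 and 16.4 CPM among the *Gp130* ecKO uteri. Only control 1 reached into the range of the *Gp130* ecKO uteri. For *Abhd6* the log2 fold change was 0.75 (standard error 0.34, 95% interval −0.05 to 1.54, edgeR adjusted p = 0.221). With each uterus left out it ran from 0.54 without control 3 (unadjusted p = 0.161) to 1.15 without control 1 (unadjusted p = 0.00866). The ratio of *Mgll* to *Abhd6* per length ran from 1.07 to 1.80 in the controls and from 1.12 to 1.85 in *Gp130* ecKO.

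*Daglb* and *Dagla* encode the diacylglycerol lipases. *Daglb* (ENSMUSG00000039206, chromosome 5, 143450236 to 143496130) had 13.9, 15.1 and 15.5 CPM among the controls and 11.9, 12.3 and 9.16 CPM among the *Gp130* ecKO uteri. In CPM each *Gp130* ecKO uterus was below each control, but in the deposited TPM the groups overlapped, at 3.82, 4.33 and 4.78 against 3.69, 4.22 and 2.51 TPM. The difference was small, with a log2 fold change of −0.42 (standard error 0.23, 95% interval −0.94 to 0.11, edgeR adjusted p = 0.286). Of the stretches of 75 bases in *Daglb* transcripts, 12.8% also occur on the opposite strand of other genes, and *Rac1*, with 4444 to 9436 counts, overlaps it on that strand. Whether strand was used in counting is not given in the sources used here. In each uterus the expected counts of *Daglb* and *Rac1* held fractions that complement each other, such as 344.02 and 9435.98 in control 1. Some reads were thus divided between these genes of opposite strands, and the *Daglb* value depends on that division. The part of *Rac1* reads in the *Daglb* value was not tested.
*Dagla* (ENSMUSG00000035735, chromosome 19, 10222629 to 10282320) had 2.87, 3.74 and 4.73 CPM among the controls and 2.94, 3.23 and 3.52 CPM among the *Gp130* ecKO uteri, from 65 to 97 counts per uterus. The groups overlapped (log2 fold change −0.22, 95% interval −0.97 to 0.54, edgeR adjusted p = 0.699). Set against the hydrolase, the summed *Dagla* and *Daglb* level per length was 0.337, 0.426 and 0.909 of *Mgll* among the controls and 0.129, 0.286 and 0.213 of it among the *Gp130* ecKO uteri. The groups did not overlap in this ratio, which was lower in *Gp130* ecKO, and the mean log2 ratios were −0.98 ± 0.75 (SD, n = 3) and −2.33 ± 0.58 (SD, n = 3). *Mgll*, higher, and *Daglb*, lower, were already apart in CPM, so the ratio restates these differences and adds no separate support. The share of ratios of other genes without overlap was not computed. The plot of ratios within a uterus sets this pair beside the others.

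**Figure D3:**
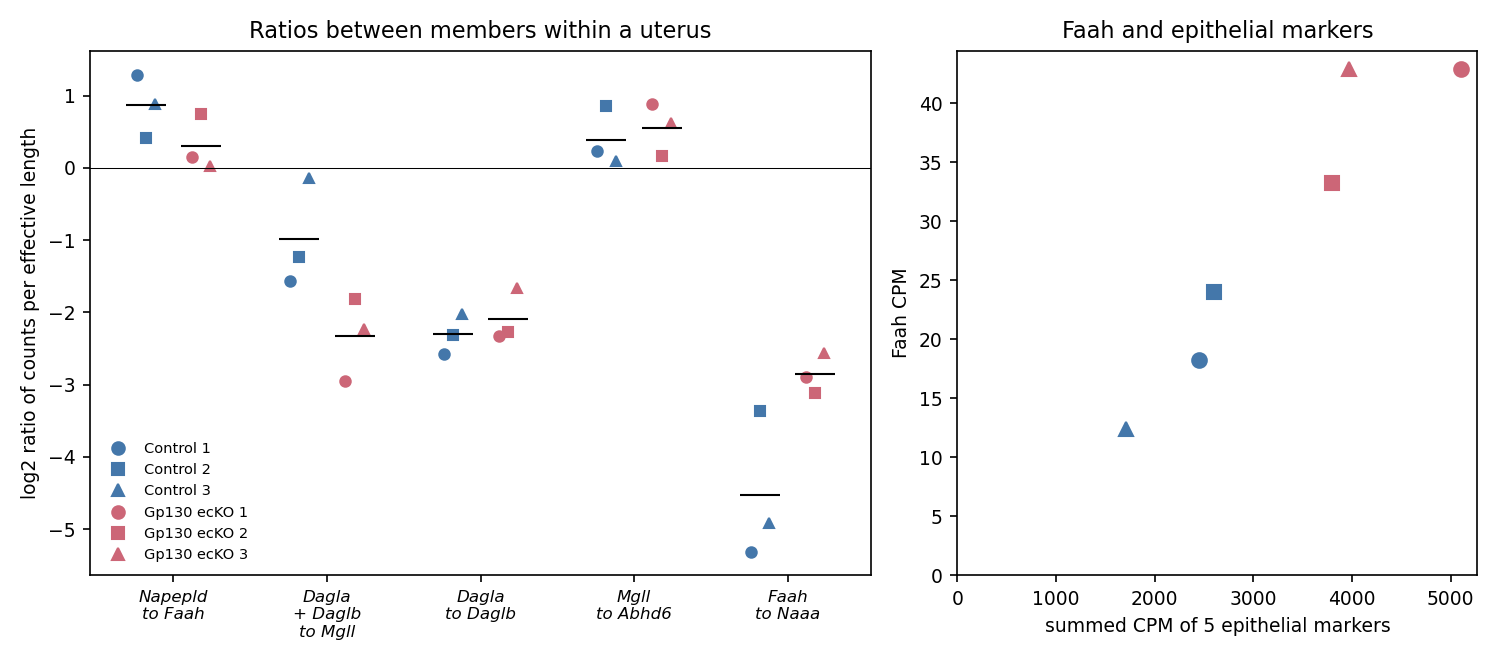
Left, log2 ratio of expected counts per effective length for 5 pairs of genes in each control (blue) and *Gp130* ecKO (red) uterus, with the mean as a line; right, CPM of *Faah* against the summed CPM of 5 epithelial markers in the same uteri. The ratios of *Dagla* plus *Daglb* to *Mgll* and of *Faah* to *Naaa* separate the groups, as *Daglb*, *Mgll* and *Faah* alone already did in CPM. The *Gp130* ecKO uteri lie at both higher marker sums (3801 to 5101 CPM) and higher *Faah*.

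Upstream sequence is shown for the first listed start of *Faah*, *Mgll* and *Daglb*, because these are the genes whose groups did not overlap in CPM. Each is the 250 bases before a transcription start in the RefSeq promoter table of GRCm38.p6, placed on GRCm39 by an exact match at chr4:115875122-115875371 (reverse strand) for *Faah*, chr6:88701144-88701393 (forward strand) for *Mgll* and chr5:143449998-143450247 (forward strand) for *Daglb*. Capitals mark GGGCGG on either strand, the letters bound by Sp-type factors.
Faah: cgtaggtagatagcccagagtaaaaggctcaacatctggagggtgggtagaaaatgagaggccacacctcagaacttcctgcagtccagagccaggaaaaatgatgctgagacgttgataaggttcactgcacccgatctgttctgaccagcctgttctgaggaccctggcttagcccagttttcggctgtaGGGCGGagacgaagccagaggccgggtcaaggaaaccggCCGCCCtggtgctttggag
Mgll: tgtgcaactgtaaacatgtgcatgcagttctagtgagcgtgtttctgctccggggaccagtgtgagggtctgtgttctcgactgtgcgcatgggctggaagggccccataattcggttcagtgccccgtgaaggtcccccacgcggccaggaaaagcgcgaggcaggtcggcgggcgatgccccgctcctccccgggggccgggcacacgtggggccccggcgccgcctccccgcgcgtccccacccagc
Daglb: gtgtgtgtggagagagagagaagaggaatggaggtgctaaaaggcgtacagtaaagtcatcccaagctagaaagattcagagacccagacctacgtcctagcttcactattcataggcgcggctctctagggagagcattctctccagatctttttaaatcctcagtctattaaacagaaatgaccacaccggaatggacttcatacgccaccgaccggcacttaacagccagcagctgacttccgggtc
The *Faah* window holds GGGCGG at 58 and at 19 bases before the start, the *Mgll* and *Daglb* windows shown hold none, and 32.7% of the 32851 windows in the table hold at least 1. Of the 13 windows that the table gives for 8 of the genes, *Dagla* not among them, 5 hold it, the second *Mgll* window (chr6:88701436-88701685) among them, at 121 bases before its start. TTCNNNGAA, the letters of a STAT site, was searched on both strands and occurs in 0 of the 13 windows and in 7.02% of all windows. The *Mgll* window is 68.0% G and C, with 23 CpG pairs, beside 55.6% with 9 in *Faah* and 49.2% with 9 in *Daglb*, and the median over all windows was 52.4% with 6.

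Of 33 other genes of the pathway, 25 passed the filter on low counts and 0 of these passed an FDR of 0.05 in edgeR's quasi-likelihood test. *Ptpn22* and *Alox15* passed it in the same test without control 2 (adjusted p of 0.0142 and 0.00818), where 5.41% of all genes did. They also passed without the filter on low counts (adjusted p of 0.0486 and 0.0393), where 0.351% did. With DESeq2 and with edgeR's exact and likelihood ratio tests, *Ptpn22*, *Alox15*, *Plcb1* and *Cnrip1* passed it, where 13.4%, 8.99% and 9.5% of all genes did. An unadjusted p below 0.05 was found for 9 of the 25, 4 higher and 5 lower in *Gp130* ecKO, and 10 of the 25 did not overlap between the groups, beside 25.0% and 31.3% of all tested genes. Their median log2 fold change was −0.08. The plot of fold changes gives all 25 beside the 7 enzymes.

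**Figure D4:**
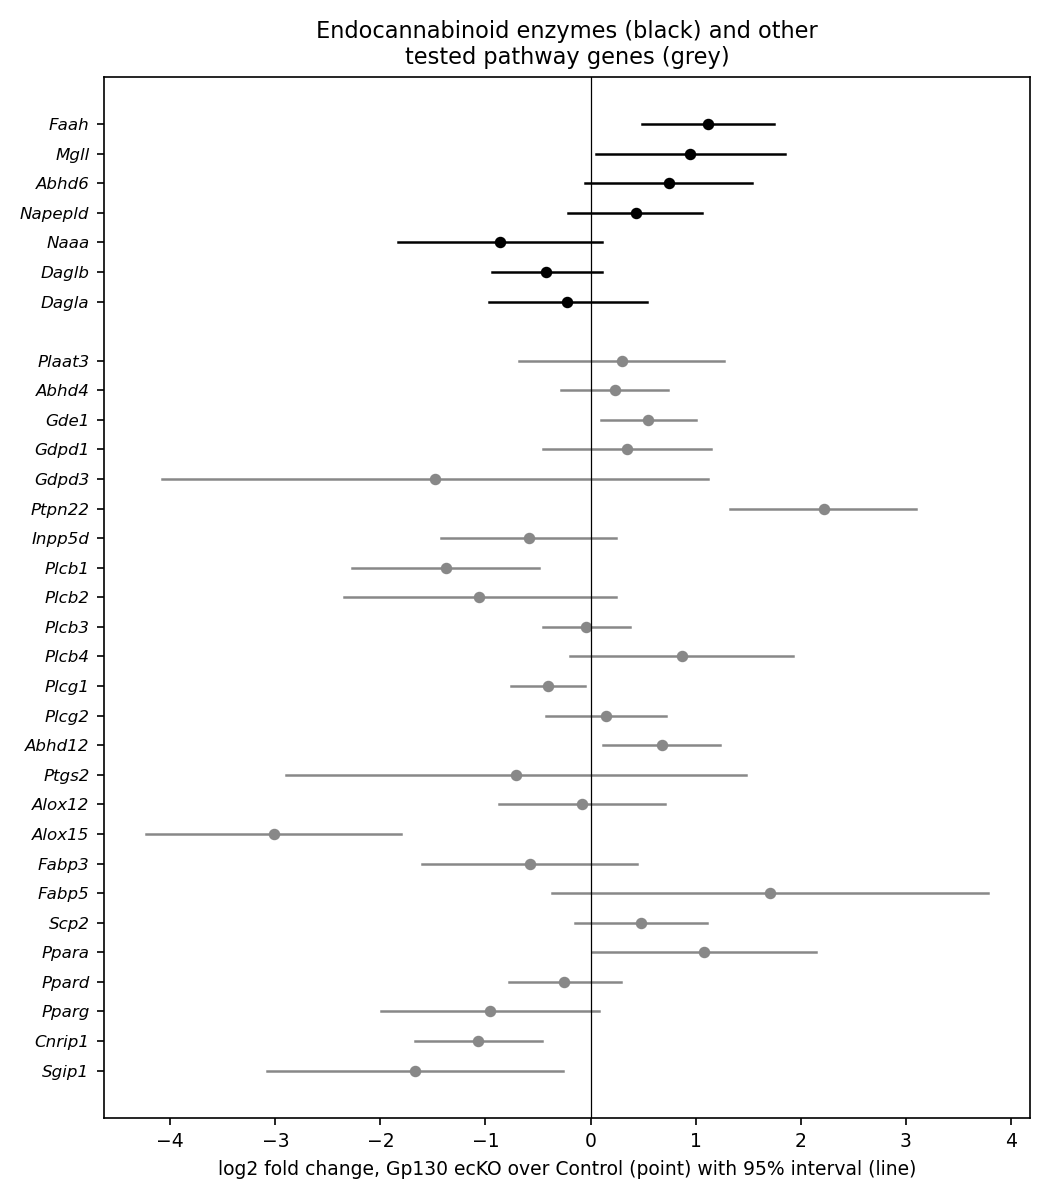
Log2 fold change of *Gp130* ecKO over control (points) with the 95% interval from edgeR's quasi-likelihood fit (lines), for the 7 tested enzyme genes in black and 25 other tested pathway genes in grey. The interval of *Faah* runs from 0.49 to 1.75, and that of *Alox15* from −4.23 to −1.80.

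Other routes to anandamide had 7 tested genes of 10, 2 of them higher at an unadjusted p below 0.05, beside 12.1% of all tested genes. *Ptpn22*, a phosphatase that acts on the phospho form of anandamide and is better known from lymphocytes, had 10.6, 30.2 and 19.1 CPM among the controls and 80.5, 115.8 and 82.0 CPM among the *Gp130* ecKO uteri. The lowest *Gp130* ecKO uterus was above the highest control (log2 fold change 2.22, standard error 0.38, edgeR adjusted p = 0.0617), and over its alternatives the adjusted p ran from 4.41e-06 with DESeq2 to 0.172. *Gde1*, a glycerophosphodiesterase of a separate route to anandamide, had 81.4 ± 11.9 CPM (SD, n = 3) in the controls and 119.6 ± 19.8 CPM (SD, n = 3) in *Gp130* ecKO, without overlap (edgeR adjusted p = 0.144). Its unadjusted p of 0.0223 became 0.0702 without control 1, 0.0769 without *Gp130* ecKO 2 and 0.0563 without *Gp130* ecKO 3.
*Abhd12*, a further hydrolase of 2-AG, had 60.6 to 100.3 CPM among the controls and 111 to 163 CPM among the *Gp130* ecKO uteri, again without overlap (log2 fold change 0.68, edgeR adjusted p = 0.147). Without control 3 its unadjusted p of 0.0234 became 0.0576, and without *Gp130* ecKO 1 it became 0.0874. The phospholipase C genes, which supply diacylglycerol for 2-AG, had 6 tested genes of 6, with 2 lower at an unadjusted p below 0.05, beside 12.9% of all tested genes. *Plcb1* had 8.98, 7.40 and 9.27 CPM among the controls and 1.76, 3.69 and 4.35 CPM among the *Gp130* ecKO uteri (log2 fold change −1.38, edgeR adjusted p = 0.104). Over its alternatives the adjusted p ran from 0.0119 with DESeq2 to 0.261. *Plcg1* had a log2 fold change of −0.40 (edgeR adjusted p = 0.163). Its unadjusted p of 0.0310 became 0.0550 to 0.11 with each uterus left out, so it was above 0.05 in all 6 of these fits.
Of the genes for proteins that bind the tail of CB1, 2 were tested, neither passed an FDR of 0.05, and both had lower values in *Gp130* ecKO. *Cnrip1* had 14.3, 13.7 and 16.3 CPM among the controls and 5.92, 8.85 and 6.30 CPM among the *Gp130* ecKO uteri (log2 fold change −1.07, standard error 0.26, edgeR adjusted p = 0.0897), with an adjusted p of 0.00276 with DESeq2 to 0.264 without *Gp130* ecKO 1 over its alternatives. *Sgip1* had 0.850 to 3.27 CPM among the controls and 0.452 to 0.654 CPM among the *Gp130* ecKO uteri (log2 fold change −1.67, edgeR adjusted p = 0.153), and without control 3, the highest, the log2 fold change was −0.98 (unadjusted p = 0.0715). The groups overlapped for neither gene, where 15.6% of all tested genes did not overlap on the lower side. Nerve markers, 2 of which were tested, had an unadjusted p below 0.05 for both, and their sum was 1.66 to 8.62 CPM among the controls and 0.269 to 0.539 CPM among the *Gp130* ecKO uteri, whose part in these values was not tested.
Among enzymes that oxidise endocannabinoids, *Alox15*, a 15-lipoxygenase, had the largest difference of the 3, with a log2 fold change of −3.01 (edgeR adjusted p = 0.0633, and from 1.15e-07 with DESeq2 to 0.176 without *Gp130* ecKO 1 over its alternatives), and both others overlapped between the groups. Of the carriers, *Fabp5*, a fatty acid binding protein that moves anandamide through the cytosol, had 15.4, 16.3 and 19.9 CPM among the controls and 10.3, 17.7 and 139.9 CPM among the *Gp130* ecKO uteri, so its log2 fold change of 1.71 rests on *Gp130* ecKO 3 and was −0.26 without it. *Scp2* overlapped between the groups, with a log2 fold change of 0.48 (edgeR adjusted p = 0.2999). With each uterus left out it ran from 0.26 without control 3 (unadjusted p = 0.289) to 0.76 without control 2 (unadjusted p = 0.0259). Of the other receptors, *Trpv1* and *Gpr119* had 0 counts in all uteri. *Ppara*, a nuclear receptor for fatty acid amides, had 0.200 to 0.463 CPM among the controls and 0.663 to 0.904 CPM among the *Gp130* ecKO uteri (log2 fold change 1.08, edgeR adjusted p = 0.198). Its unadjusted p of 0.0489 was above 0.05 with each uterus left out, from 0.0561 without control 2 to 0.132 without *Gp130* ecKO 1. *Pparg*, another receptor of this family, was lower without overlap, at 2.02 to 2.80 CPM against 0.588 to 1.62 CPM (log2 fold change −0.96, edgeR adjusted p = 0.226), and is named here after its values were seen. *Ppard* overlapped (log2 fold change −0.25, edgeR adjusted p = 0.518).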

How the data were processed

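Members and gene lists were chosen with earlier results of these data known. The authors prepared strand-specific poly(A) libraries, read them as single reads of 75 bases, trimmed them with fastp 0.23.2, removed ribosomal RNA reads, mapped the rest to GRCm39 with STAR 2.7.10a and estimated an expected count per gene with RSEM 1.3.3. The deposited tables also hold TPM and FPKM, which the authors scaled for length and depth. The annotation release is not given in the sources used here. Of the 56748 gene identifiers, 56017 matched GENCODE M39 (GRCm39), the source of symbols and coordinates.

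Expected counts were rounded and passed to edgeR 4.0.16 in R 4.3.3: filterByExpr (16605 genes), TMM factors, and the quasi-likelihood F test without its legacy form, with Benjamini-Hochberg adjustment. Calls needed an FDR under 0.05 and more than 2-fold change. Standard errors are the log2 fold change over the square root of F, and 95% intervals use the t quantile of the fit. Ratios within a uterus used expected counts per effective length. Single genes were also compared by an exact permutation test of log2(CPM + 0.5). Alternatives were other tests (DESeq2 1.42.0 among them), scalings and filters, unrounded counts, a replicate block and the omission of single uteri. The scalings to epithelial markers and to *Epcam* were added after seeing the data.

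The text names all 9 members, of the other pathway genes the highest and the most changed in each role, and the 3 genes closest to *Faah* and to *Cnr1* in course. *Trpv1* and *Gpr119*, which had no counts, and *Pparg* are named besides. Promoter windows were chosen after the values were seen. No pair of libraries in a group had nearly identical counts.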

Additional observations from a re-analysis of the deposited data

How the results depend on the processing

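Direction was the same for the 7 enzyme genes in each of the 17 alternatives set beforehand. The number of all genes called was 26, and 7 with the legacy quasi-likelihood form, 1252 with edgeR's exact test, 1317 with its likelihood ratio test, 1546 with DESeq2, 105 without a filter, 6 with the replicate block, and 1 to 897 with each uterus left out. The highest of these, 897, came without control 2. Of the enzymes, 0 were called, but 1 (*Faah*) was called with the exact test, 1 with the likelihood ratio test, 1 with DESeq2, and 0 to 1 with each uterus left out, the 1 coming without control 2. The enzymes with an unadjusted p below 0.05 numbered 2, and 1 to 4 with each uterus left out, with 4 without control 1 (19.2% of all genes) and 1 without control 3 (19.1%) or *Gp130* ecKO 1 (15.4%). Those without overlap numbered 3, and 3 to 6 with each uterus left out, with 6 without control 1. The shares of all genes without overlap ran from 36.2% without *Gp130* ecKO 1 to 45.6% without control 2. Signs reversed for *Napepld* (−0.45) and *Abhd6* (−0.15) relative to the epithelial markers, a scale that lowers any gene by 0.94, but not relative to *Epcam* (0.63 and 0.93), and for *Fabp5*, which ran from −0.26 without *Gp130* ecKO 3 to 2.20 without *Gp130* ecKO 1. *Fabp5* had 139.9 CPM in *Gp130* ecKO 3. For the other results the cause was not tested.

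The labels do not say whether replicate numbers pair the uteri. Deviations of same-numbered uteri correlated at 0.102, 0.061 and −0.19 across genes, beside −0.297 to 0.215 for the other pairs. With 3 uteri per group these values cannot settle it. With the replicate block, 0 enzymes were called (0.0361% of all genes) and 3 had an unadjusted p below 0.05 (22.1%). Depth limits *Cnr1* and *Cnr2*, at most 10 counts per uterus.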

Other observations

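RSEM weights the length of a gene by the transcripts it estimates, so a shift in that length shows another estimated mix of transcripts. For *Faah*, with 8 transcripts in the tables, the length was 2406, 2500 and 2665 bases among the controls and 2600.0, 2929 and 2680 bases among the *Gp130* ecKO uteri, so the groups overlapped. *Naaa*, with 5 transcripts, had 1655 bases in control 1, the uterus with the highest *Naaa* level, and 1493 to 1551 bases in the other uteri. The lengths of the 9 genes overlapped between the groups in each case. For the 7 enzyme genes the range over the uteri was 0.505% of the mean length in *Napepld* and 19.9% in *Faah*. These values were not tested.

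Little of the transcript sequence of the enzymes is shared with other genes on the same strand. The share of 75-base stretches that also occur in another gene on that strand was 1.06% for *Napepld*, 0.549% for *Abhd6*, 0.082% for *Dagla* and 0.022% for *Faah*, and 0 for *Cnr1*, *Cnr2*, *Naaa*, *Mgll* and *Daglb*. On the opposite strand the share was 12.8% for *Daglb*, 4.78% for *Napepld*, 3.92% for *Mgll* and 1.52% for *Abhd6*. It was 1.27% or less for the others.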
